A study of Mus musculus with 9 samples.

Results

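The markers described here are 10 surface and lysosomal proteins of monocytes, macrophages and granulocytes, read as mRNA in MLL-AF9 leukemia cells: Ly6c1, Ly6c2, Ly6g, Ly6e, Cd14, Cd68, Adgre1, Mrc1, Cd163 and Siglec1. They are the 10 genes of those names among the 55536 genes of the expression table, each with 1 row, and each was listed above 0 in every library. The leukemia came from c-kit+ cells of WT or IRF7-/- mice that had been infected with the MSCV-MLL-AF9-GFP retrovirus, so all groups carry MLL-AF9 and GFP. GFP+ leukemia cells were given to C57BL/6J recipients aged 6 to 8 weeks, 1000000 per mouse and with no irradiation, and were sorted from bone marrow on day 18. The 9 libraries form 3 groups of 3. WT leukemia gave AML-WT-c-kit- libraries (WT c-kit- below) and AML-WT-c-kit+ libraries (WT c-kit+ below), and IRF7-/- leukemia gave AML-IRF7-/--c-kit+ libraries (labelled IRF7-/- below). The genotype labels read control for the first and second groups and IRF7-/- for the third, each with GFP overexpression. In IRF7-/- mice exons 2 and 3 of Irf7 are replaced by a PGK-beta-geo cassette. The recipients keep their own marrow, since they were not irradiated, and no c-kit- group of IRF7-/- leukemia was part of the comparison.

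These markers are what flow cytometry uses to read the myeloid lineage. Mouse monocytes carry Ly6C and neutrophils carry Ly6G, small surface proteins held by a lipid (GPI) anchor, and the Gr-1 antibody used to stain leukemia cells binds mainly Ly6G and, less strongly, Ly6C. CD14 presents bacterial lipopolysaccharide (LPS) to Toll-like receptor 4, CD68 is a lysosomal glycoprotein of phagocytes, and F4/80, encoded by Adgre1, is the classical mouse macrophage antigen. CD206 (Mrc1), CD163 and CD169 (Siglec1) are endocytic and adhesion receptors of tissue macrophages.

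Expression was given in TPM, transcript abundance scaled by gene length and to a fixed library total, so that levels of different genes may be set beside each other. The libraries summed to between 987468 and 992231 TPM. The 10 most abundant genes held 13.1 to 17.3% of the total in WT c-kit+ libraries but 9.39 to 10.3% elsewhere. Irf7 was between 5.97 and 12.81 TPM in the labelled IRF7-/- libraries, above the 3.36 to 5.31 TPM of WT c-kit+, which goes against the knockout label, and below the 22.28 to 32.33 TPM of WT c-kit-. The table gives 1 value per gene, and whether it includes transcript of the targeted allele outside exons 2 and 3 was not tested. The paper reports checking IRF7 expression in its leukemia models with qRT-PCR and Western blot. The labelled IRF7-/- libraries are called by their label, and any direction taken from them depends on that label. Kit, which encodes c-kit, was between 0.52 and 3.03 TPM in WT c-kit-. It was between 50.69 and 58.50 TPM in WT c-kit+ and between 70.26 and 85.68 TPM in the labelled libraries. The c-kit+ groups thus did not overlap in Kit (difference in log2(TPM + 1) of 0.58, limma adjusted p = 0.00385). The part of this difference in the marker results was not tested. Of the 6 markers of leukemic myeloid cells (Itgam, Ptprc, Spi1, Cebpa, Hoxa9 and Meis1), the summed level was 1120 to 1349, 856 to 1026 and 887 to 1002 TPM in the 3 groups. Markers of other cells were summed in lists of 4 genes. T cell markers came to at most 1.81 TPM. Erythroid markers ran from 2.11 to 7.79 TPM, and megakaryocyte markers from 0.730 to 2.28 TPM in WT c-kit- and from 8.96 to 12.9 TPM in the c-kit+ libraries. Endothelial markers ran over 83.8 to 99.4, 37.9 to 47.5 and 94.3 to 109 TPM in the 3 groups, stromal markers over 44.5 to 59.5, 16.8 to 30.9 and 32.6 to 55.9 TPM, and plasmacytoid dendritic cell markers over 146 to 182, 51.6 to 70.6 and 190 to 390 TPM. Most of this was Pecam1, Lepr, and Tcf4 with Bst2, whereas the more restricted Cdh5 and Kdr were at most 0.24 TPM, Col1a1 and Col3a1 at most 1.29 TPM, and Siglech and Ccr9 at most 4.20 TPM. Between the c-kit+ groups Pecam1, Tie1, Tcf4 and Bst2 were called higher in the labelled libraries (differences in log2(TPM + 1) of 1.21, 2.06, 1.72 and 1.96, by the rule given with the first comparison), and their part in the marker results was not tested. The labels do not say whether libraries of a group came from separate mice, so p-values measure the spread between these libraries, which may be technical.

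The 4 Ly6 genes lie in 1 cluster on chromosome 15 (GRCm38, GENCODE M21). The stretch from Ly6e to Ly6g spans 204 kb and holds 6 protein-coding genes: Ly6e, Ly6i, Ly6a, Ly6c1, Ly6c2 and Ly6g. Genes of the cluster beyond this stretch were not counted. Ly6e is at chr15:74955051-74959905 on the plus strand, Ly6c1 at chr15:75044018-75048830 and Ly6c2 at chr15:75108158-75111970 on the minus strand, and Ly6g at chr15:75155240-75159126 on the plus strand. The first 150 coding bases of Ly6c1, Ly6c2 and Ly6g are printed because they show how close the genes are whose transcripts are counted apart here. Capitals mark the 31 positions at which the 3 genes are not all the same.
Ly6c1: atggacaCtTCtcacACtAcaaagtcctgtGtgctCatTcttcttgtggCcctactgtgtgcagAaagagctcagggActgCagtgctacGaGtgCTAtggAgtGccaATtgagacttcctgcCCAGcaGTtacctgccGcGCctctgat
Ly6c2: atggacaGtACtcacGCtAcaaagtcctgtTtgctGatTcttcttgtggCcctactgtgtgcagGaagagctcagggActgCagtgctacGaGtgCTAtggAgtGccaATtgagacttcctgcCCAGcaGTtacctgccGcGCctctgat
Ly6g: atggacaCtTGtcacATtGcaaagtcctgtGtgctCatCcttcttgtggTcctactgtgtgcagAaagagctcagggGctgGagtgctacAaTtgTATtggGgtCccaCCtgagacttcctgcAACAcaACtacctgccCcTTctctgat
In this stretch Ly6c1 and Ly6c2 differ at 6 positions, Ly6g differs from Ly6c1 at 25 and from Ly6c2 at 31. Over the whole coding sequence Ly6c1 and Ly6c2 were identical at 384 of 393 bases (97.7%), Ly6g matched Ly6c1 at 79.6% and Ly6c2 at 78.1% of aligned positions, and Ly6e matched the other 3 at 50.1 to 53.2%. Reads of 50 bases from annotated transcripts would be shared with another gene in 32.8% of windows of Ly6c1, 14.5% of Ly6c2, 0.448% of Ly6g and 0% of Ly6e. At 100 bases the shares would be 10.1% for Ly6c1, 5.81% for Ly6c2 and 0% for Ly6g and Ly6e, and the read length is not given in the sources used here. At 50 bases, 379 windows of Ly6c1 were shared with Ly6c2 and 195 with Ly6a, which ran from 8.67 to 19.02 TPM. The division of reads between Ly6c1, Ly6c2 and Ly6a therefore depends on a quantification whose method is not given in the sources used here. The level of Ly6c1 in particular is uncertain.

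Ly6c2 was the most abundant of the 10 markers in each library. Its level was 3193, 2925 and 2783 TPM in WT c-kit-, 1882, 2096 and 2003 TPM in WT c-kit+, and 2799, 2363 and 2204 TPM across the labelled IRF7-/- libraries. The c-kit+ groups did not overlap with each other, WT c-kit+ was below all 3 WT c-kit- libraries, and labelled library 1 reached into the WT c-kit- range. By level it ranked between place 26 and 72 among all genes of a library. Ly6e, which encodes a broadly expressed Ly6 protein known to be induced by interferon, came next with 2294, 2444 and 2528 TPM in WT c-kit-, 747.0, 1044 and 912.2 TPM in WT c-kit+, and 1646, 1336 and 945.5 TPM across the labelled libraries. All c-kit+ libraries were below the c-kit- ones, and the c-kit+ groups overlapped. Ly6c1 had a far lower level, with means of 93.0 ± 15.4, 54.9 ± 15.4 and 70.2 ± 7.28 TPM (SD, n = 3) in the 3 groups, and was highest in WT c-kit-.

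Ly6g had the widest range, in fold, of the 4 Ly6 markers. It was 16.00, 11.36 and 65.02 TPM in WT c-kit-, 45.37, 19.57 and 35.46 TPM in WT c-kit+, and 1.77, 0.65 and 1.15 TPM across the labelled IRF7-/- libraries. All 3 labelled libraries lay below the 6 WT libraries, whereas the WT groups overlapped because WT c-kit- library 3 stood far above the other 2 of its group. The same library stood apart in Ltf (lactoferrin) and Mmp9 (gelatinase B), the granule genes of neutrophils, with 950.4 and 262.4 TPM against 154.4 to 188.3 and 46.54 to 52.88 TPM in libraries 1 and 2. The summed level of 18 other granulocyte markers ran from 10371 to 35724 TPM in WT c-kit- and from 77382 to 127706 TPM in WT c-kit+. It ran from 20267 to 25081 TPM in the labelled libraries. Its largest parts there were Elane, Prtn3, Ctsg and Mpo, with means of 7820, 5031, 4017 and 3724 TPM. In WT c-kit- these had means of 881, 1458, 408 and 431 TPM. S100a8 and S100a9 were lower in the labelled libraries, with means of 613 and 925 TPM against 4414 and 7329 TPM in WT c-kit-. In WT c-kit+ they had means of 24525 and 39669 TPM. The sum thus joins genes that differ in opposite directions. The part of these 18 markers in the Ly6g values was not tested. In bulk samples, fewer cells of a type and less RNA per cell cannot be told apart.

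The phagocyte markers outside the Ly6 cluster include Cd68 (chr11:69664213-69666153, minus strand) and Adgre1 (chr17:57358691-57483527, plus strand). Cd14 formed 3 steps with no overlap. It was 118.0, 177.9 and 204.9 TPM in WT c-kit-, 53.91, 76.37 and 65.98 TPM in WT c-kit+, and 8.12, 5.39 and 14.81 TPM across the labelled libraries. Cd68 was 342.7, 285.8 and 312.9 TPM in WT c-kit-, 62.82, 84.96 and 85.63 TPM in WT c-kit+, and 47.29, 74.85 and 53.23 TPM across the labelled libraries, so both c-kit+ groups were low and overlapped with each other. Adgre1 had another pattern. It was 86.38, 62.34 and 97.10 TPM in WT c-kit-, 33.92, 22.99 and 37.94 TPM in WT c-kit+, and 57.68, 52.63 and 73.97 TPM across the labelled libraries. Its lowest group was WT c-kit+, and the labelled libraries overlapped with WT c-kit-.

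The receptors of tissue macrophages, Cd163 (chr6:124304656-124330527, plus strand), Mrc1 (chr2:14229392-14332057, plus strand) and Siglec1 (chr2:131069220-131086765, minus strand), were lower than most of the others. Cd163, which takes up haemoglobin bound to haptoglobin, was 32.87, 37.52 and 28.03 TPM in WT c-kit-, 2.77, 4.76 and 6.08 TPM in WT c-kit+, and 6.93, 6.36 and 5.96 TPM across the labelled libraries. Only WT c-kit- stood apart. Mrc1, the mannose receptor, ran from 1.40 to 2.54 TPM, from 0.77 to 1.22 TPM and from 0.40 to 0.47 TPM in the 3 groups, and Siglec1, a sialic acid-binding adhesion receptor, stayed between 0.10 and 0.91 TPM. The Mrc1 ranges did not overlap, but all lay between 0.40 and 2.54 TPM. A microRNA gene, Mir511, lies within Mrc1, and whether reads from it were counted was not tested. The library kit marks no strand. Defining markers of resident marrow macrophages were also near the lower end: Timd4, Mertk, Spic and Cd5l were at most 0.87 TPM in each library, and C1qa, C1qb and C1qc at most 4.96 TPM. C1qa, C1qb and C1qc were called higher in WT c-kit+ than in WT c-kit- (ratios of mean TPM of 5.06, 4.06 and 3.42, by the rule given with the first comparison), where Cd163, Cd68 and Adgre1 were lower, and their part in those results was not tested. Vcam1, the eighth gene of that list, was higher there too and reached a far higher level, with 96.5 ± 17.0 TPM (SD, n = 3) in the labelled libraries and 9.76 ± 2.66 and 0.347 ± 0.142 TPM in WT c-kit+ and WT c-kit-.

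**Figure D1:**
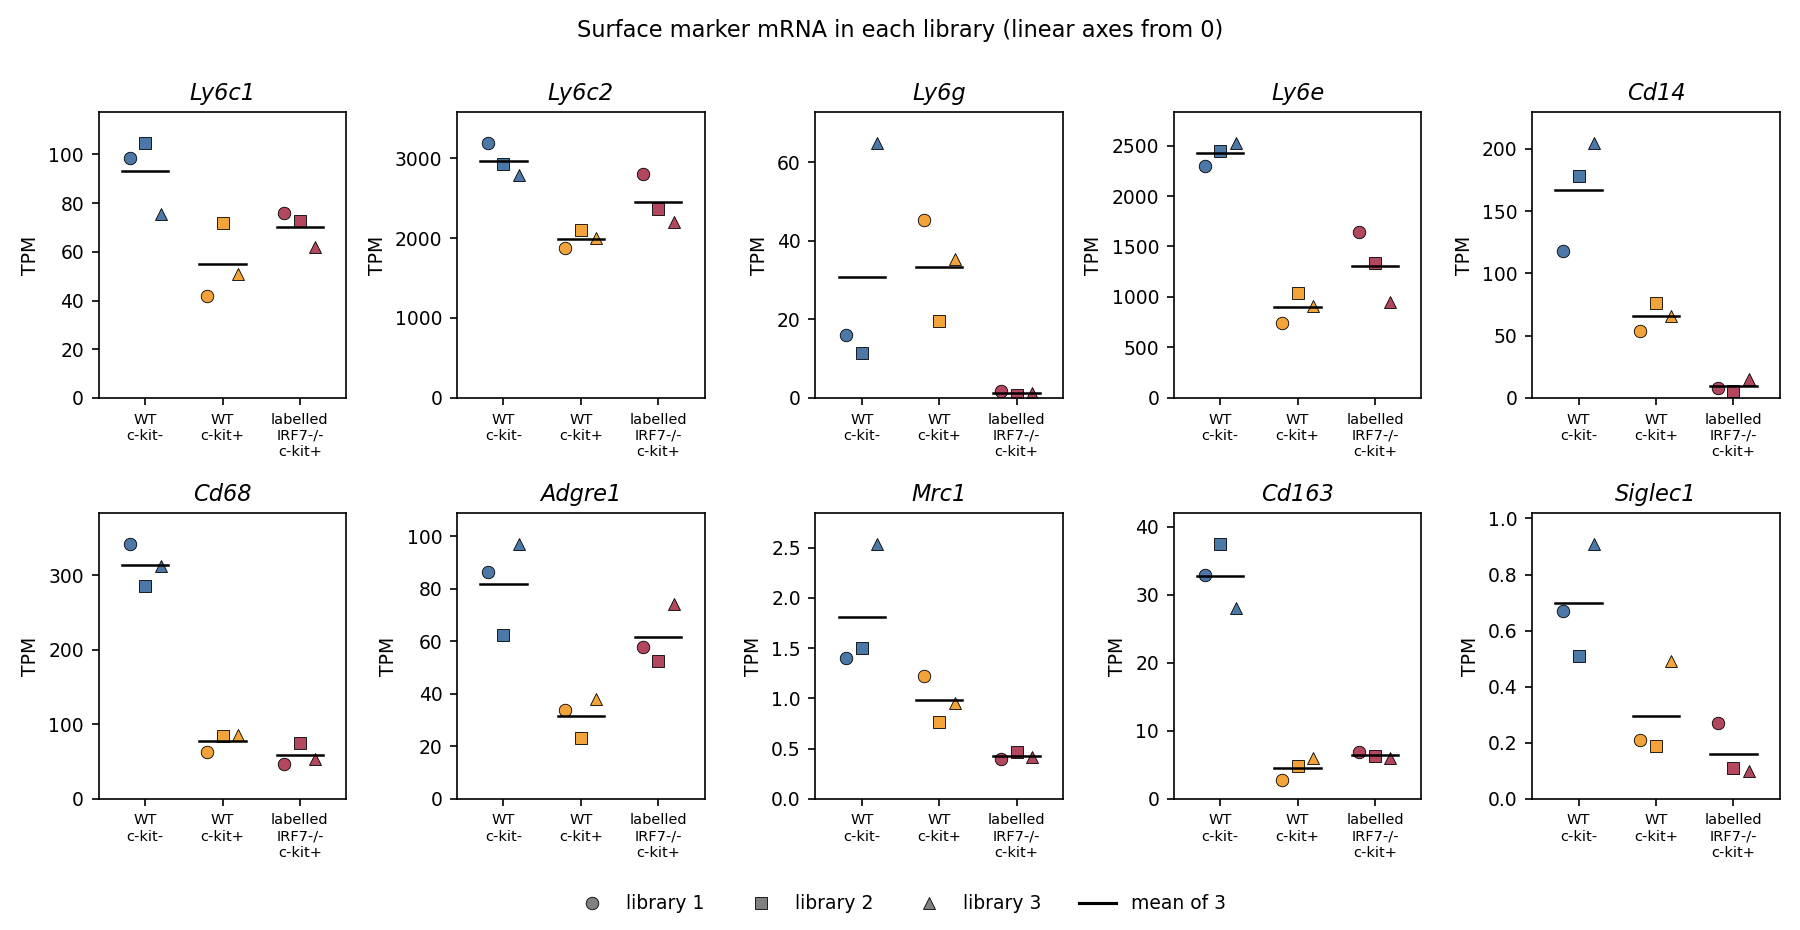
Level of each marker (TPM, linear axis from 0) in the 3 libraries of each group, with a symbol for each library number and a line at the mean. Ly6g and Cd14 are lowest in the libraries labelled IRF7-/- c-kit+, at no more than 1.77 and 14.81 TPM, whereas Cd68 and Cd163 are high only in WT c-kit-.

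The order of the mean levels in WT c-kit- was Ly6c2, Ly6e, Cd68, Cd14, Ly6c1, Adgre1, Cd163, Ly6g, Mrc1 and Siglec1, in which the neighbours Ly6c1 and Adgre1, and Cd163 and Ly6g, overlapped. Ly6g, with its 1 high library, also reached into the range of Adgre1. In WT c-kit+ each neighbour from Cd68 through Cd14, Ly6c1, Ly6g and Adgre1 overlapped with the next, with means from 77.8 to 31.6 TPM. Cd68 and Cd14 still lay wholly above Ly6g and Adgre1, and Ly6c1 wholly above Adgre1. In the labelled libraries Ly6c1, Adgre1 and Cd68 overlapped with their neighbour at means of 70.2, 61.4 and 58.5 TPM, Cd14 and Cd163 overlapped at 9.44 and 6.42 TPM, and Ly6g came below them at 1.19 TPM. Ly6g was in place 8 of 10 in WT c-kit-, 6 in WT c-kit+ and 8 in the labelled libraries.

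The first comparison asked what differs between the c-kit+ and the c-kit- cells of WT leukemia, c-kit being the marker by which the immature cells were sorted. Of the 10 markers, 5 were called lower in WT c-kit+: Cd163 by 7.23-fold (ratio of mean TPM), Cd68 by 4.03-fold, Ly6e by 2.69-fold, Adgre1 by 2.59-fold and Cd14 by 2.55-fold. Ly6c1 and Ly6c2 fell less, 1.70-fold and 1.49-fold. Ly6g and Mrc1 did not pass the test. The difference in log2(TPM + 1), which understates the change of low genes, was −2.65 (SE 0.24, limma adjusted p = 0.000234) for Cd163 and −2.01 (SE 0.14, limma adjusted p = 7.55e-05) for Cd68. It was −1.44 (SE 0.13, limma adjusted p = 0.000237) for Ly6e, −1.35 (SE 0.23, limma adjusted p = 0.00346) for Adgre1 and −1.32 (SE 0.22, limma adjusted p = 0.00347) for Cd14.
A marker was called when its adjusted p over all genes tested was under 0.05 and this difference was at least 1 in size. By that rule 5 of 9 markers tested were called lower and 0 higher, beside 9.61% of all 13261 genes called lower and 4.83% called higher. The groups did not overlap, with the lower level in WT c-kit+, for 8 of the 9, beside 34.7% of all genes, and with the higher level for 0, beside 19.7%. The median difference over the 9 markers was −1.32, and over all genes tested −0.08. Ly6c1 (−0.77, SE 0.21, limma adjusted p = 0.0257) and Ly6c2 (−0.57, SE 0.09, limma adjusted p = 0.00335) fell by less than the fold threshold. For Ly6c1 the adjusted p ran from 0.0068 to 0.0814 over the alternatives and was over 0.05 in 6 of 13, among them without WT c-kit- replicate 1 or 2 and without WT c-kit+ replicate 1 or 3. For Mrc1 the difference was −0.49 (SE 0.20, limma adjusted p = 0.0964), and Siglec1 was not tested, since it did not reach 1 TPM in 3 of the 6 libraries. Exact two-sided permutation tests gave p = 0.1 for each marker without overlap, the smallest that 3 libraries against 3 allow. For Ly6g the difference of 0.44 (SE 0.64, limma adjusted p = 0.619) rested on 1 library: without WT c-kit- replicate 3 it was 1.17 (limma adjusted p = 0.0475), and without WT c-kit- replicate 2 it was −0.04.

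The second comparison asked what differs between the labelled IRF7-/- and the WT c-kit+ libraries, which also differ in Kit. Ly6g was 28.1-fold lower and Cd14 6.93-fold lower in the labelled IRF7-/- libraries than in WT c-kit+. The Ly6g fold divides by labelled values of 0.65 to 1.77 TPM, so its size is uncertain. None of the 10 markers was called higher. Adgre1 was 1.94-fold higher and passed the adjusted p but not the fold threshold. For Ly6c1, Ly6c2, Ly6e, Cd68 and Cd163 no change passed the test. Leaving out 1 library brought the adjusted p under 0.05 for Ly6c1 (WT c-kit+ replicate 2), Ly6e (labelled replicate 3), Cd68 (labelled replicate 2) and Cd163 (WT c-kit+ replicate 3), below the fold threshold.
The difference in log2(TPM + 1) was −3.93 (SE 0.33, limma adjusted p = 0.00026) for Ly6g, lower than in all but 0.257% of the genes tested. It was −2.76 (SE 0.32, limma adjusted p = 0.000882) for Cd14 and 0.95 (SE 0.20, limma adjusted p = 0.00892) for Adgre1. Of 8 markers tested 2 were called lower, beside 5.39% of 13238 genes called lower and 6.30% called higher. Ly6g and Cd14 (lower) and Ly6c2 and Adgre1 (higher) had no overlap between groups, beside 20.1% of all genes with no overlap and a lower level and 39.0% with no overlap and a higher level. The median difference was 0.33 over the 8 markers and 0.12 over all genes.
For the others it was 0.29 (SE 0.11, limma adjusted p = 0.0561) for Ly6c2, 0.38 (SE 0.19, limma adjusted p = 0.144) for Ly6c1, 0.52 (SE 0.22, limma adjusted p = 0.0898) for Ly6e, −0.42 (SE 0.19, limma adjusted p = 0.115) for Cd68 and 0.47 (SE 0.23, limma adjusted p = 0.137) for Cd163. Mrc1 and Siglec1 did not reach the level needed for the test. Adgre1 reached the fold threshold as well without WT c-kit+ replicate 1 (1.02, limma adjusted p = 0.0226), without WT c-kit+ replicate 3 (1.09, limma adjusted p = 0.0114) or without labelled replicate 2 (1.05, limma adjusted p = 0.0151). Labelled library 1, which had the highest Ly6e, also had the highest level of interferon-stimulated genes: Isg15 was 103.7 TPM there and 13.70 and 19.59 TPM in the other 2. The part of this library's interferon-stimulated genes in the Ly6e values was not tested, and without it the Ly6e difference from WT c-kit+ was 0.33.

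The third comparison set the labelled c-kit+ libraries against WT c-kit-, and so uses libraries of both comparisons above. All 10 markers had a lower mean in the labelled libraries. Ly6g was 25.9-fold lower, Cd14 17.7-fold, Cd68 5.37-fold and Cd163 5.11-fold. These 4 of 9 markers tested were called lower and 0 higher, beside 11.9% and 8.40% of 13510 genes. The Ly6g fold again divides by labelled values of 0.65 to 1.77 TPM, so its size is uncertain. For 6 of the 9 the groups did not overlap, with the lower level in the labelled libraries, beside 32.4% of all genes, and for 0 with the higher level, beside 34.7%. The difference in log2(TPM + 1) was −3.49 (SE 0.60, limma adjusted p = 0.0026) for Ly6g and −4.07 (SE 0.35, limma adjusted p = 0.00012) for Cd14. It was −2.43 (SE 0.17, limma adjusted p = 4.94e-05) for Cd68 and −2.18 (SE 0.12, limma adjusted p = 2.38e-05) for Cd163.
Ly6e (−0.92, SE 0.19, limma adjusted p = 0.0054), Mrc1 (−0.95, SE 0.19, limma adjusted p = 0.00432) and Ly6c1 (−0.39, SE 0.14, limma adjusted p = 0.0443) were lower by less than the fold threshold, and Ly6c1 overlapped between the groups. Its adjusted p was over 0.05 in 9 of 13 alternatives, among them without WT c-kit- replicate 1 or 2 and without any one of the labelled libraries. Ly6c2 (−0.28, limma adjusted p = 0.0565, under 0.05 in 5 of 13 alternatives, 1 of them without labelled replicate 1) and Adgre1 (−0.40, limma adjusted p = 0.11) did not pass. The median over the 9 markers was −0.95, against 0.03 over all genes. Without WT c-kit- replicate 3 the Ly6g difference was −2.76 (limma adjusted p = 0.000651). Ly6e passed the fold threshold without labelled replicate 1 (−1.11, limma adjusted p = 0.00264), and Mrc1 without WT c-kit- replicate 1 or 2 (−1.06 and −1.03).

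**Figure D2:**
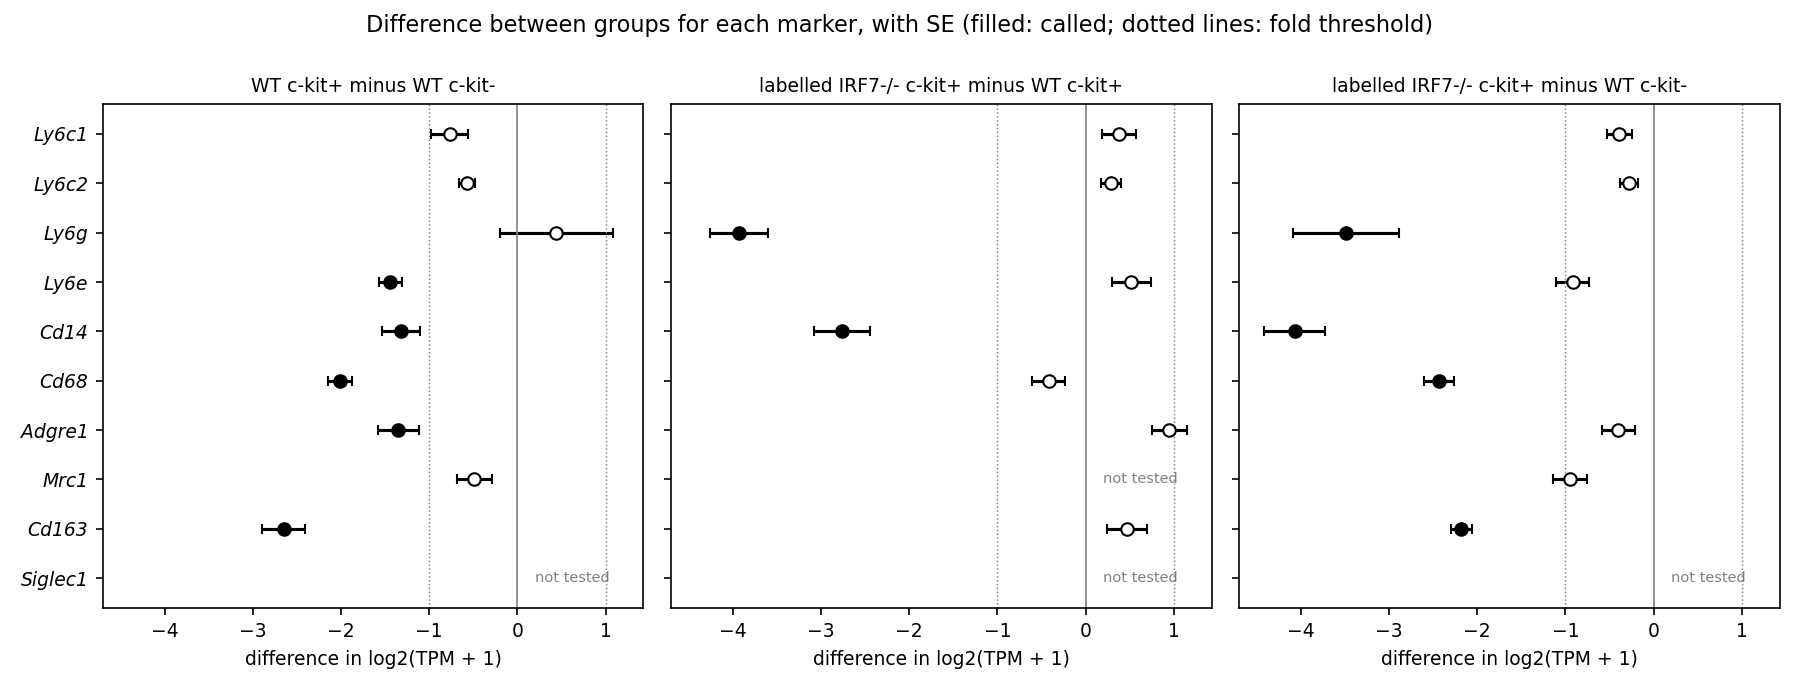
Difference in log2(TPM + 1) for each marker in each comparison, with bars of 1 SE from limma; filled circles mark genes called and dotted lines the fold threshold of 1. Ly6g and Cd14 lie furthest to the left in both comparisons with the labelled libraries, whereas Ly6c2 stays within 0.57 of 0 in all 3.

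Ratios between markers were taken within each library, where any scaling of the library cancels out. The ratio of Ly6c2 to Ly6c1 was 27.9 to 36.8 in WT c-kit-, 29.1 to 44.8 in WT c-kit+ and 32.5 to 36.9 in the labelled libraries, with an overlap in each pair of groups (exact two-sided permutation p = 0.4, 0.8 and 0.4 in the order of the comparisons above). The ratio of Ly6c2 to Ly6g behaved otherwise. It was 42.8 to 258 in WT c-kit-, 41.5 to 107 in WT c-kit+ and 1581 to 3636 in the labelled libraries. All 3 labelled libraries lay above the 6 WT libraries (exact two-sided permutation p = 0.1 against each WT group, the smallest possible). The labelled ratios divide by Ly6g at 0.65 to 1.77 TPM, so their size is uncertain.
The ratio of Cd68 to Cd14 was 1.53 to 2.90, 1.11 to 1.30 and 3.59 to 13.9 in the 3 groups, without overlap. Cd14 was thus lower relative to Cd68 in the labelled libraries than in any WT library. The ratio of Cd68 to Adgre1 was 3.22 to 4.58, 1.85 to 3.70 and 0.720 to 1.42, so Adgre1 was higher relative to Cd68 in the labelled libraries. That of Ly6c2 to Ly6e was 1.10 to 1.39 in WT c-kit-, below the 2.01 to 2.52 of WT c-kit+ and the 1.70 to 2.33 of the labelled libraries.

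**Figure D3:**
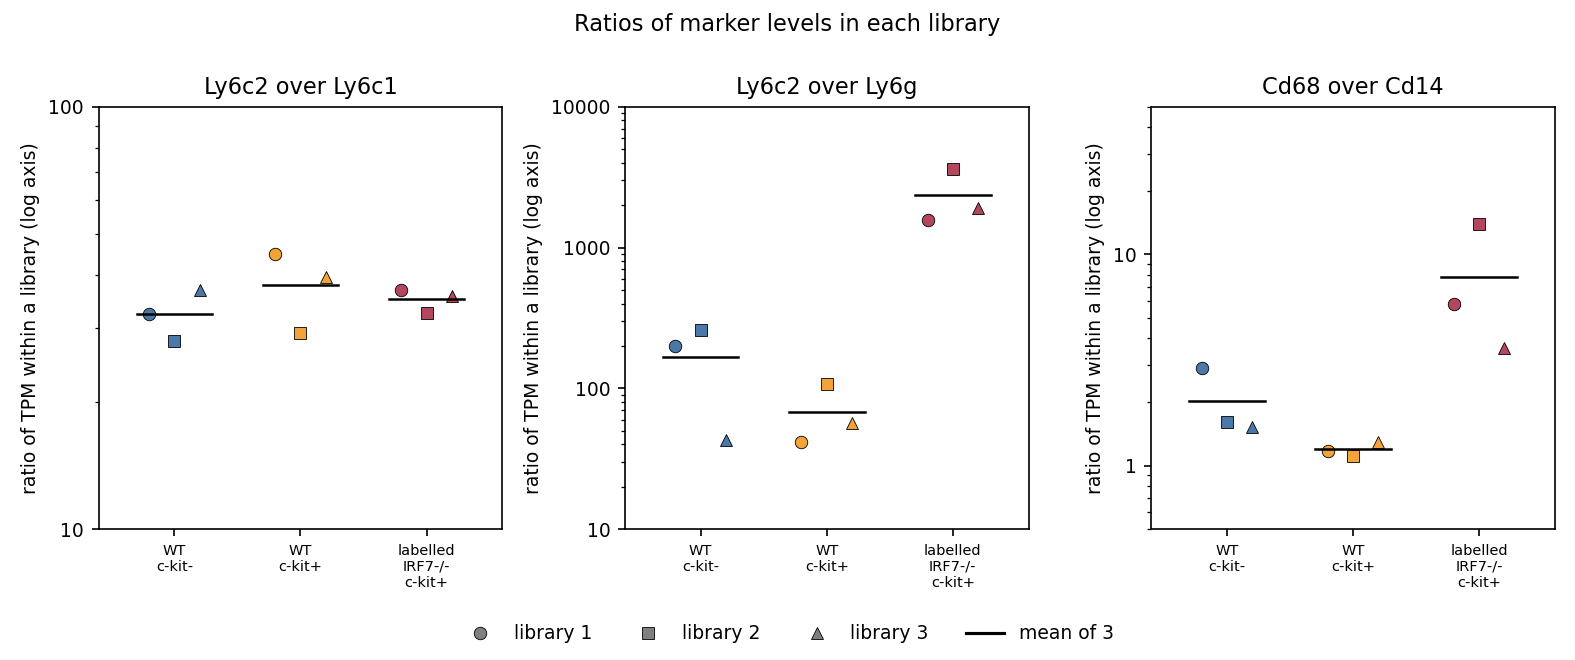
Ratio of TPM between 2 markers within each library (log axes of different span), with a line at the arithmetic mean of 3. The ratio of Ly6c2 to Ly6c1 overlaps between all groups, whereas the ratio of Ly6c2 to Ly6g is 1581 or more in the labelled libraries and at most 258 in the others.

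The promoters of Ly6c1, Ly6c2 and Ly6g are shown because Ly6g was called lower in the second comparison whereas Ly6c1 and Ly6c2, of the same cluster, did not pass. Each is the 250 bases before the most upstream RefSeq start (GRCm38.p6), in the direction of the gene. They are Ly6c1 at chr15:75048838-75049087 on the minus strand, Ly6c2 at chr15:75111972-75112221 on the minus strand and Ly6g at chr15:75155011-75155260 on the plus strand. Capitals mark matches, on either strand, to the PU.1 core GAGGAA, the C/EBP core TTGCNNAA and the TATA box TATAAA, which do not overlap one another here.
Ly6c1: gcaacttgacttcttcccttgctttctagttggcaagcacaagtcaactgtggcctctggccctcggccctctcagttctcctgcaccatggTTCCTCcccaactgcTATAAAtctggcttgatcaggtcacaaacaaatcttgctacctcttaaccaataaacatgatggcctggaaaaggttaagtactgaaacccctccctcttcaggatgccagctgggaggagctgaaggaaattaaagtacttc
Ly6c2: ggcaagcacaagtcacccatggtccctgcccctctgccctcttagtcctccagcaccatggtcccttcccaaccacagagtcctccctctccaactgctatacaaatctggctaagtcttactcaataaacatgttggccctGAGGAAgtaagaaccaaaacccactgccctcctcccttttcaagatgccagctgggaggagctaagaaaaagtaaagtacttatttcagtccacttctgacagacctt
Ly6g: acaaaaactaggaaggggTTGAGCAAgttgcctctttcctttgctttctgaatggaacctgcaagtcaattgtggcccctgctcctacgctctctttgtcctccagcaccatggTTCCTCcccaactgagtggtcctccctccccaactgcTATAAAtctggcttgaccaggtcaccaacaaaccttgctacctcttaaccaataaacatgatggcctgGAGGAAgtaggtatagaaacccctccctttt
By alignment with free ends, Ly6g matched Ly6c1 at 75.1% and Ly6c2 at 65.5% of positions, and Ly6c1 matched Ly6c2 at 71.9%. RefSeq promoters (250 bases before and 50 after the start) were at hand for 6 markers, the other 3 being Cd68, Mrc1 and Cd163, and not for Ly6e, Cd14, Adgre1 and Siglec1. The PU.1 core was found in 5 of the 6 (all but Cd163) and in 28.3% of 27025 promoters. The C/EBP core was in Ly6g and Cd68 and in 10.7% of all. The letters of the TATA box were in Ly6c1 and Ly6g, 143 and 99 bases upstream of the start, and in 14.2% of all. The core of the interferon-stimulated response element, GAAANNGAA, was in 0 of the 6 and in 8.58% of all. These are matches of letters in the window given and were not tested for binding.

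Other genes of the same kinds were counted from lists, read against the same background of calls. Of 17 other monocyte markers tested, 13 were called lower and 0 higher in WT c-kit+ than in WT c-kit-, with a median difference of −2.23. Without WT c-kit- replicate 3, 1 was called higher. Those lower included Fn1, which encodes fibronectin (802 ± 224 to 15.0 ± 8.91 TPM, SD, n = 3, difference −5.75, limma adjusted p = 6.61e-05), and Klf4, a transcription factor of monocytes (134 ± 4.11 to 6.66 ± 1.49 TPM, difference −4.16, limma adjusted p = 1.08e-05). Of 16 tested, 6 in the labelled libraries were called lower than in WT c-kit+ and 0 higher (median −0.67), with Nr4a1, a nuclear receptor of Ly6C-low monocytes (−3.86, limma adjusted p = 0.000111), and Klf4 (−2.40, limma adjusted p = 0.00025) falling most. Against WT c-kit- 12 of 17 were lower.

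Granulocyte markers mostly went the other way between the WT groups, and Ly6g was not called. Of 18 tested, 10 were called higher and 1 lower in WT c-kit+ than in WT c-kit- (median 1.37). Among those not called, Retnlg (53.0 to 9.91 TPM), Mmp9 (121 to 56.9 TPM) and Cxcr2 (9.62 to 7.05 TPM) had lower means in WT c-kit+. Each of them was highest in WT c-kit- replicate 3. Ltf, Lcn2, Csf3r and Ceacam1, also not called, had higher means in WT c-kit+. Camp, a cathelicidin of neutrophil granules, rose by 3.98 (limma adjusted p = 0.00234) and Mpo, myeloperoxidase, by 3.48 (limma adjusted p = 1.95e-05), whereas Mmp8, neutrophil collagenase, differed by −3.79 (limma adjusted p = 0.000184). The labelled libraries had 11 of 18 called lower than in WT c-kit+ and 1 higher (median −2.17). Camp (8553 ± 2228 to 153 ± 57.0 TPM, SD, n = 3) and Ngp, another granule protein (10420 ± 3335 to 198 ± 84.4 TPM), differed by −5.82 and −5.74 (limma adjusted p = 4.29e-05 and 7.83e-05). Ctsg, the cathepsin G of primary granules, was the one called higher, by 1.63 (limma adjusted p = 0.000894). Against WT c-kit- 11 of 18 were lower and 4 higher, the latter led by Ctsg (3.30) and Elane, neutrophil elastase (3.15). Without WT c-kit- replicate 3 the counts stayed within 1.5 times these.

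Of 20 other macrophage markers 10 stayed under 1 TPM in every library. In WT c-kit+ 4 of 10 tested were called higher and 4 lower than in WT c-kit-. Slc40a1, the iron exporter ferroportin, rose (2.98, limma adjusted p = 0.00142), and Msr1, a scavenger receptor, and Apoe, the lipid carrier apolipoprotein E, fell (−2.84 and −2.54, limma adjusted p = 0.0001 and 0.000499). Apoe was the only one of 9 called in the labelled libraries against WT c-kit+ (102 ± 24.2 to 26.2 ± 3.24 TPM, SD, n = 3, difference −1.90, limma adjusted p = 0.000368). That count of lower genes became 2 without WT c-kit+ replicate 2 or without labelled replicate 1, and 1 gene was called higher without WT c-kit+ replicate 2. Against WT c-kit- 4 of 8 were lower, Apoe and Msr1 among them (−4.44 and −3.20), and 1 was higher, Slc40a1 (2.86).

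The partners of CD14 in LPS recognition did not share 1 direction. In WT c-kit+, Lbp, the LPS-binding protein that loads CD14, rose by 1.92 (limma adjusted p = 0.000109) and Tlr4 by 1.00 (limma adjusted p = 0.00768), whereas Cd180, a relative of TLR4, and Ticam2, an adaptor of TLR4, fell (−2.66 and −2.61, limma adjusted p = 3.02e-05 and 0.000115). Of the 10 genes 2 were called higher and 4 lower, and the 2 became 1 without WT c-kit- replicate 1, WT c-kit- replicate 2 or WT c-kit+ replicate 1. Between the c-kit+ groups 1 was called higher in the labelled libraries, Ticam2 (1.41, limma adjusted p = 0.000625), and 1 lower, Tlr2 (11.0 ± 1.22 to 3.40 ± 1.24 TPM, SD, n = 3, difference −1.48, limma adjusted p = 0.00166), a receptor of bacterial lipopeptides. Cd14 itself differed by −2.76 in that comparison. Against WT c-kit- the labelled libraries had 1 of 10 higher, Lbp (2.40), and 4 lower, led by Tlr2 (−3.83) and Cd180 (−2.92).

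Of 26 other Ly6 and uPAR family genes in the table, 9 were listed at 0 in all libraries and 5 to 7 were tested in a comparison. Between the WT groups 0 of 6 were called higher and 1 lower, which became 1 higher without WT c-kit- replicate 3 and 2 lower without WT c-kit- replicate 1. Against WT c-kit+ the labelled libraries had 2 of 5 higher and 1 lower. Ly6k rose from 48.5 ± 8.58 to 128 ± 30.6 TPM (SD, n = 3, difference 1.36, limma adjusted p = 0.00196) and Ly6g5b, named like Ly6g but outside its cluster, fell from 8.64 ± 3.34 to 2.23 ± 0.200 TPM (−1.51, limma adjusted p = 0.00502). Against WT c-kit- 1 of 7 was higher, 2 without labelled replicate 2, and 2 were lower, with Plaur, the urokinase receptor, at −1.62 (limma adjusted p = 0.00163).
Interferon-stimulated genes, among which Ly6e is often counted, were lower in WT c-kit+ than in WT c-kit- in 10 of 20 tested and higher in 1. Of 22 tested, 17 were called higher in the labelled libraries than in WT c-kit+, led by Rtp4 (4.64, limma adjusted p = 0.00185) and Ifi27l2a (4.10, limma adjusted p = 0.00793), and 0 lower. Rtp4 was 97.04, 12.79 and 22.69 TPM and Ifi27l2a 285.6, 25.34 and 57.37 TPM in the labelled libraries, both highest in library 1. Without that library the differences were 3.83 (limma adjusted p = 0.000635) and 3.15 (limma adjusted p = 0.00795). The count was 11 without WT c-kit+ replicate 2. Ly6e, at 0.52 and a limma adjusted p of 0.0898, did not pass there. Against WT c-kit- 9 of 24 were higher and 2 lower, the latter 4 without labelled replicate 1 and 1 without any other single library.

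**Figure D4:**
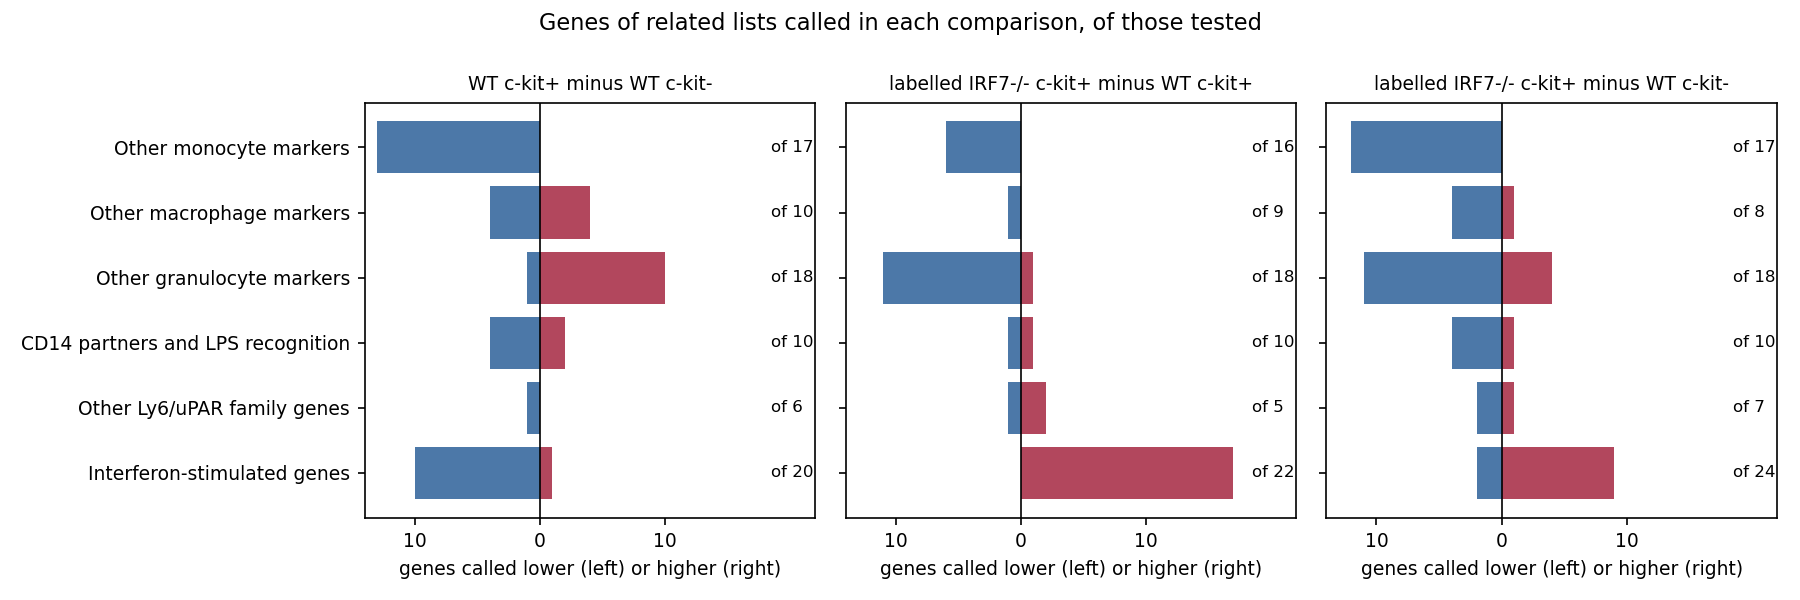
Number of genes of each list called lower (bars to the left) or higher (bars to the right) in each comparison, with the number tested at the right edge of each panel. Granulocyte markers are mostly higher in WT c-kit+ than in WT c-kit- (10 of 18) and mostly lower in the labelled libraries than in WT c-kit+ (11 of 18).

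The genes whose profile over the 9 libraries came closest to that of a marker were sought among 11056 genes with a mean of at least 5 TPM in at least 1 group. Likeness was the root mean square difference (RMS) between log2(TPM + 1) values centred on each gene's mean, so that 0 is the same profile. For Ly6g, whose own values departed from their mean by an RMS of 1.89, they were A530064D06Rik (0.513), Ltf (0.522) and Mmp9 (0.551). For Cd14 (own RMS 1.74) they were Hcar2, a receptor of hydroxybutyrate and niacin (0.302), Tmem176b (0.305) and Cd80, a costimulatory ligand of T cells (0.403). Cd80 was at 77.7, 32.5 and 2.58 TPM and Hcar2 at 20.7, 8.75 and 0.343 TPM in the mean of the 3 groups, the steps seen in Cd14.
For Cd68 (own RMS 1.08) they were the copper pump Atp7a (0.0962), Kif1c (0.144) and Cacna1d (0.16), and for Cd163 (own RMS 1.18) Prdx4 (0.176), Padi2 (0.183) and Ms4a6c (0.188). For Adgre1 (own RMS 0.624) they were Slc25a35 (0.198), the retinoid X receptor gene Rxra (0.226) and Stx11 (0.233), and for Ly6e (own RMS 0.636) Cav2 (0.169), Emc9 (0.17) and Trafd1 (0.172). Among the markers themselves Ly6c1 and Ly6c2 had the smallest difference in profile, 0.197. Their own RMS was only 0.389 and 0.255, and genes that vary little differ little by this measure. Ly6c2 and Siglec1, and Mrc1 and Siglec1, had 0.236. Some reads of Ly6c1 and Ly6c2 are also shared, so 0.197 does not show that they vary together. Cd68 and Cd163 had 0.45.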

How the data were processed

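RNA of 9 libraries, 3 for each of 3 groups, was sequenced after preparation with the Illumina TruSeq RNA kit (version 2). The methods of the study name the assay a microarray. The authors deposited TPM for 55536 genes in 1 table, already scaled by gene length and library total; its unit was read from the column sums, and the aligner, quantifier and genome build are not given in the sources used here. All gene identifiers are in GENCODE M21. TPM keep no depth, so the depth is unknown and precision rests on the spread of 3 libraries. Samples were grouped by their labels; 0 value columns were left unused.

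For each pair of groups limma (version 3.58.1, R 4.3.3; lmFit, eBayes with trend) was fitted to log2(TPM + 1) of its 6 libraries for genes that reached 1 TPM in 3 or more of them, with Benjamini-Hochberg adjustment over all genes tested. Genes called had an adjusted p under 0.05 and a difference of at least 1 in size. The fit was tested on simulated data. Tests of single ratios were exact two-sided permutation tests of 20 splits. Markers and lists were chosen with earlier results of these data known. The rule for naming genes from each list was, per comparison, the 2 largest rises and the 2 largest falls among called genes. Their higher group had to average 5 TPM or more, and not all genes under this rule are named here. The 3 genes of most similar profile are given for Ly6g, Cd14, Cd68, Cd163, Adgre1 and Ly6e and not for the other markers. Isg15 was chosen after its values were seen. Promoters came from RefSeq and coding sequences from GENCODE M21 (Python 3.11.15, Biopython 1.88, pandas 2.3.3, scipy 1.17.1, matplotlib 3.10.9). Alternatives were other filters, a pseudocount of 0.1, quantile normalization, 1 fit of all 9 libraries, the replicate number as a block, no trend, and each library left out. The same alternatives for the counts of each list, their reading by the adjusted p alone, and the values of Rtp4 and Ifi27l2a without 1 library were added after the data were seen. The summed level of B cell markers is not reported here.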

Additional observations from a re-analysis of the deposited data

How the results depend on the processing

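Of 336 values of the markers under an alternative, 326 kept their direction and their call (both thresholds together), 0 calls were lost, 9 were gained and 1 value turned. The value that turned was Ly6g between the WT groups, −0.04 without WT c-kit- replicate 2. Without WT c-kit- replicate 3 it was 1.17, 1 of the calls gained. By the adjusted p alone, 15 fell from under to over 0.05, all of Ly6c1 (6 in the first comparison and 9 in the third), and 15 came under it. Leaving out 1 library gave 5 to 6 called markers in the first comparison, 2 to 3 in the second and 4 to 5 in the third. With the replicate number as a block the counts were 5, 2 and 4, the same markers as without it. Deviations from the group mean correlated weakly between libraries of equal number (r from −0.0591 to 0.26, mostly positive). Between libraries of unequal number r ran from −0.203 to 0.157. The numbers were not taken as pairs, and these values cannot tell whether they mark pairs. In the third comparison Mrc1 passed the fold threshold with a pseudocount of 0.1 (−1.81) and Ly6e with quantile normalization (−1.07). Quantile normalization moved the median difference of all genes from −0.08 to 0.07, from 0.12 to 0.03 and from 0.03 to 0.09, and no marker changed direction with it. With no filter on low values Mrc1 differed by −0.46 (limma adjusted p = 0.0325) in the second comparison, and Siglec1 by −0.39, −0.16 and −0.55 (limma adjusted p = 0.107, 0.393 and 0.0138) in the 3 comparisons. A filter of 5 TPM left out Mrc1 and lowered the number of all genes called in the second comparison from 1548 to 1015. With 3 libraries a group and no depth, a marker near 1 TPM cannot be told from noise in quantification.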
